A study of Mus musculus with 6 samples.

Results

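The genes described here were 10 members of the oxygenase superfamily that uses iron, oxygen and 2-oxoglutarate, chosen by name among the 54532 genes of the count table. They were the TET enzymes *Tet1*, *Tet2* and *Tet3*, the prolyl hydroxylases *Egln1*, *Egln2* and *Egln3*, the asparaginyl hydroxylase *Hif1an*, the RNA demethylases *Alkbh5* and *Fto*, and the histone demethylase *Phf8*. Their mRNA levels were measured by RNA-seq in MLE12 cells, an SV40-immortalized mouse lung epithelial line labelled C57BL/6J. The 3 samples of the Ctrl shRNA group carried empty LV (lentiviral) vectors at a multiplicity of infection (MOI) of 50, and the 3 samples of the Idh3α shRNA + Slc25a1 shRNA group carried an Idh3α-silencing and a Slc25a1-silencing lentivirus, each at an MOI of 50. The virus-containing medium was changed at 16 h, and culture went on for another 80 h. The study used the pair of silencing viruses to hold citrate inside mitochondria. The model was 1 cell line with 1 shRNA per target, and as the study's text reads, the total viral dose differed between the groups. The labels do not say whether samples of a group came from separate cultures, so the p-values measure only the spread between these samples.

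These enzymes split oxygen, decarboxylate 2-oxoglutarate to succinate, and hydroxylate a protein or a methylated base. The prolyl hydroxylases mark the HIF-α subunits for VHL-mediated degradation, and the asparaginyl hydroxylase blocks HIF from recruiting its coactivators. TET enzymes oxidize 5-methylcytosine in DNA, ALKBH5 and FTO remove methyl groups from adenosine in RNA, and PHF8 removes them from histone lysines. IDH3 makes mitochondrial 2-oxoglutarate from isocitrate, and SLC25A1 exports citrate to the cytosol. Transcript levels do not report the activity of an enzyme or the supply of its cosubstrate.

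The total count was 27273502 to 28535653 in the Ctrl shRNA samples and 27715153 to 28112519 in the knockdown samples. Levels between genes are given per length, as the FPKM values that the authors deposited, and levels of 1 gene between samples also as CPM scaled by TMM factors. Ctrl shRNA replicate 2 stood apart from the other 5 samples. It had counts in 16681 genes against 19902 to 23147 elsewhere, 6.49% mitochondrial counts against 1.57% to 1.80%, and 27.2% of its counts in its 100 most abundant genes against 12.6% to 12.9%. Relative to the other controls, its median log2 ratio was 0.33 over the 3827 genes with the shortest annotated length and -0.13 over the 3827 with the longest. For the 9 members tested, the same log2 ratio ran from -0.39 to 0.24 with a median of -0.19. Each of the 9 tested enzymes is therefore given with all 6 samples and without this replicate. So are the related genes, except some named only for a call in DESeq2 or in limma's quality weights. In the edgeR quasi-likelihood test, 10 of 15307 genes (0.0653%) passed a Benjamini-Hochberg adjusted p of 0.05 with all samples. Without this replicate, 281 of 15709 genes (1.79%) did.

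In bulk RNA, a change in the number of cells of a type and a change in RNA per cell cannot be told apart. The targeted genes were lower in every knockdown sample than in every control. *Idh3a* measured 79.8, 137 and 93.0 CPM in the controls and 58.5, 57.9 and 55.5 CPM in the knockdown samples. *Slc25a1* measured 103, 98.7 and 108 CPM against 68.9, 69.6 and 63.0 CPM. In the edgeR test of all 6 samples, their log2 fold changes were -0.85 (adjusted p = 0.254) and -0.62 (adjusted p = 0.104), while DESeq2 on the same samples called both (adjusted p = 0.0193 and 5.37e-06). Without Ctrl shRNA replicate 2 both fell, *Idh3a* by 0.60 ± 0.08 (SE; adjusted p = 0.0142) and *Slc25a1* by 0.66 ± 0.07 (SE; adjusted p = 0.00649) on the log2 scale. Among markers of the labelled cell type, *Nkx2-1*, *Abca3*, *Krt8* and *Cdh1* were expressed, whereas *Sftpd* had no count, and *Sftpa1*, *Lamp3* and *Krt18* stayed below 1 CPM in every sample. *Sftpc*, encoding surfactant protein C, was at 44.1, 97.3 and 50.9 CPM in the controls and 35.9, 28.5 and 27.2 CPM in the knockdown samples. Its log2 fold change was -1.07 with all samples (edgeR adjusted p = 0.315) and -0.65 without Ctrl shRNA replicate 2 (edgeR adjusted p = 0.0438). Of the 7 listed markers tested with all samples, 3 had a log2 fold change above 0 and none was called by edgeR or DESeq2, with 2 at an unadjusted p of 0.05 in edgeR, while limma's quality weights called *Sftpc* and *Nkx2-1* lower (adjusted p = 0.0184 and 0.0294). *Cdh1*, encoding E-cadherin, was at 0.14 with the knockdown samples above the controls, *Nkx2-1* at -0.20 with them below, and *Abca3* at 0.06 with overlap. *Epcam* was at -0.40 (edgeR adjusted p = 0.375), with 2.39 to 3.20 CPM in the knockdown samples against 3.24 to 4.01 CPM in the controls. *Sftpb* and *Krt8* were at 0.15 and -0.01 with overlap.

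Of the 10 enzymes, 9 were expressed and none passed the edgeR threshold, either with all 6 samples or without Ctrl shRNA replicate 2. DESeq2 also called 0 of them, where it called 353 of 13028 genes (2.71%). At an unadjusted p of 0.05 in edgeR, 1 of the 9 passed, *Alkbh5*, against 2162 of 15307 genes (14.1%). In limma with sample quality weights, which called 2298 of 15307 genes (15.0%), it was again only *Alkbh5*. That fit weighted the controls at 0.621, 0.101 and 3.19 and the knockdown samples at 2.82, 0.948 and 1.88. Its control values therefore rest mostly on Ctrl shRNA replicate 3. The median absolute log2 fold change was 0.12 over the 9 enzymes and 0.22 over all genes tested, and 8 of the 9 lay within 0.25 of 0. Leaving out Ctrl shRNA replicate 2, these medians were 0.13 and 0.16. For all 9, the 95% confidence interval of the fold change lay inside a 2-fold change in either direction. For 7 it lay inside 1.5-fold, and for 8 without Ctrl shRNA replicate 2. The 3 knockdown samples lay apart from the 3 controls in 1 of the 9 genes (11.1%) against 25.4% of all genes tested, in CPM. With 3 samples against 3, the exact permutation test cannot give a two-sided p below 0.1.

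**Figure D1:**
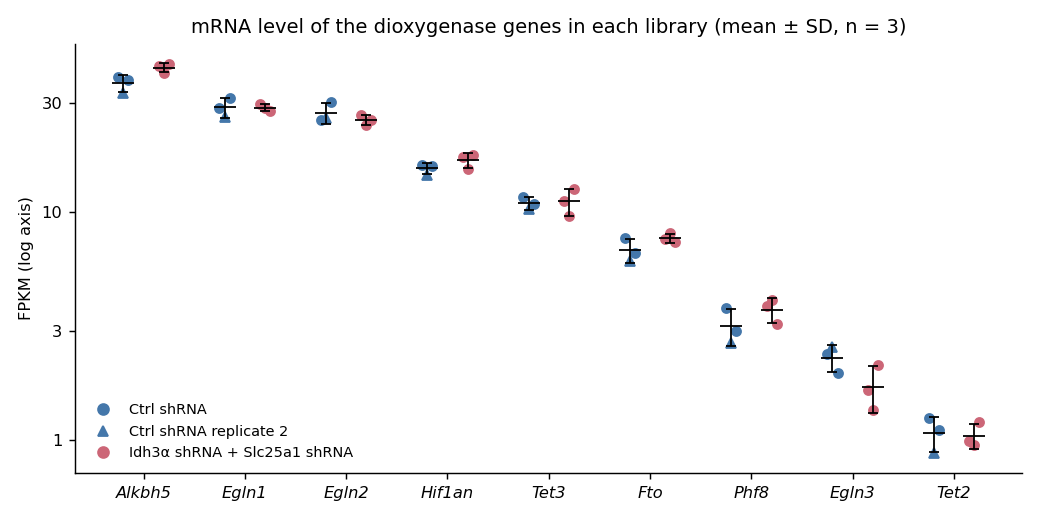
FPKM (log axis) of the 9 tested enzymes in each of the 3 Ctrl shRNA samples and the 3 knockdown samples, with 1 point per sample (triangle, Ctrl shRNA replicate 2) and bars for each group's mean ± SD. The ranges of the groups overlap for every gene except *Alkbh5*, where the knockdown samples at 40.6 to 44.2 lie above the controls at 32.9 to 38.8.

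The HIF prolyl hydroxylases differed widely in level. *Egln1* (PHD2, the main HIF prolyl hydroxylase of most cells; chromosome 8, 124908587 to 124949324 on GRCm38) measured 28.4, 25.9 and 31.5 FPKM in the controls and 29.5, 28.5 and 27.6 FPKM in the knockdown samples. The 3 knockdown values lay inside the range of the controls, at means of 28.6 ± 2.82 and 28.5 ± 0.937 (SD, n = 3 each). Its log2 fold change was -0.00 with a 95% interval of -0.22 to 0.21 (edgeR adjusted p = 0.989), and -0.07, from -0.23 to 0.09, without Ctrl shRNA replicate 2 (adjusted p = 0.602). *Egln2* (PHD1; chromosome 7, 27158658 to 27166802) measured 25.2, 25.6 and 30.3 FPKM against 26.6, 24.0 and 25.2 FPKM. The highest value was in a control and the lowest in a knockdown sample, and the groups overlapped. Its log2 fold change was -0.10, from -0.33 to 0.13 (edgeR adjusted p = 0.613), and -0.14, from -0.34 to 0.07, without that replicate (adjusted p = 0.425). *Egln1* exceeded *Egln2* in 6 of 6 samples, but the ranges of the pair overlapped.

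*Egln3* (PHD3, a HIF-inducible prolyl hydroxylase; chromosome 12, 54178981 to 54203860) was by far the least abundant of the 3, with 2.38, 2.55 and 1.95 FPKM in the controls and 1.65, 1.35 and 2.14 FPKM in the knockdown samples. Knockdown replicate 3 lay above Ctrl shRNA replicate 3, so the groups overlapped. The group means were 2.29 ± 0.306 and 1.71 ± 0.396 FPKM (SD, n = 3 each). On the log2 scale this was the widest difference among the 9 enzymes and also the least precise, with a log2 fold change of -0.42 and an interval of -0.96 to 0.11 (edgeR adjusted p = 0.385). Without Ctrl shRNA replicate 2 it was -0.35, from -0.83 to 0.14 (adjusted p = 0.394). Its counts were the lowest of the 9, down to 109 in a sample.

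The balance within the prolyl hydroxylase family did not separate the groups. Of the summed FPKM of the 3 genes, *Egln1* made up 49.3% ± 1.41 in the controls and 51.4% ± 1.36 in the knockdown samples (SD, n = 3; exact permutation p = 0.2). *Egln2* made up 46.7% ± 1.41 and 45.5% ± 0.810 (SD, n = 3; exact permutation p = 0.3). *Egln3* contributed 4.01% ± 0.853 and 3.08% ± 0.718 (SD, n = 3; exact permutation p = 0.2).

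The promoters of this family are shown because *Egln1* and *Egln3* are known HIF targets, beside that of *Ldha*, a glycolytic HIF target described further on. Each window is 300 bases of RefSeq sequence on GRCm38.p6, from 250 before to 50 after the annotated start, printed 5′ to 3′ on the strand of the gene. All 4 genes had a window, and where a gene had several the first is shown. Capitals mark the HIF core letters ACGTG or GCGTG on either strand (CACGT or CACGC when read on the other), and CACGTG counts on both strands. The windows lie at chr8:124949205-124949504 (minus strand) for *Egln1*, chr7:27166753-27167052 (minus) for *Egln2*, chr12:54203825-54204124 (minus) for *Egln3* and chr7:46845554-46845853 (plus) for *Ldha*.
Egln1: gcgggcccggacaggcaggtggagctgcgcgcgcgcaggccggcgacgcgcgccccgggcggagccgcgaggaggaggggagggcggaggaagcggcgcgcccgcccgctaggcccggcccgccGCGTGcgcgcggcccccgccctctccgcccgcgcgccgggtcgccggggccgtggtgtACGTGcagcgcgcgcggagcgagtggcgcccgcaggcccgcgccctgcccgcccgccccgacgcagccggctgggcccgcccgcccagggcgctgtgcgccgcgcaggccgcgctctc
Egln2: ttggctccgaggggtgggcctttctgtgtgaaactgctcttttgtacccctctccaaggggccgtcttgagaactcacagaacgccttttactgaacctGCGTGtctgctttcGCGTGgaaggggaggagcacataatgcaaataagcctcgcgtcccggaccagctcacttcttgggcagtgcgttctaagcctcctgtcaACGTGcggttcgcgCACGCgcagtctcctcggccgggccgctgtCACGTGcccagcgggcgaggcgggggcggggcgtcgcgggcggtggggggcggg
Egln3: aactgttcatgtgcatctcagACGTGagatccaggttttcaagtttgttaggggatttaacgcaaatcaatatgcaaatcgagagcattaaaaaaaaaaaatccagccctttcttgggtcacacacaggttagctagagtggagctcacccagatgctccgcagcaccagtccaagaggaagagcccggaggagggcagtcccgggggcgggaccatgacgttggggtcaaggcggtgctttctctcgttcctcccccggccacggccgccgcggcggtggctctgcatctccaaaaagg
Ldha: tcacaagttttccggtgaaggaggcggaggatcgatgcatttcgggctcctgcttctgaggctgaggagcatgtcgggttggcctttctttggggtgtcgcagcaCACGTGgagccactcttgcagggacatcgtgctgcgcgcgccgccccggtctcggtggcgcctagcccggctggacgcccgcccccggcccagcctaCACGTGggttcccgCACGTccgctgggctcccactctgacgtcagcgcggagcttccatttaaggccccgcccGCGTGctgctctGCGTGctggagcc
*Egln1* held 2 cores, *Egln2* 6, *Egln3* 1 and *Ldha* 7. The first windows of *Slc2a1* and *Hk2*, HIF targets also described further on, are not printed and held 2 each. In *Egln2* they included an overlapping pair in the CACGTG that spans the annotated start. Among all 32851 windows, 43.8% held at least 1 core, 20.6% at least 2 and 0.694% at least 6. CpG-rich windows hold the letters more often, at 73.6% of the windows with 20 or more CpG. Over the 10 enzymes, 6 of the first windows held a core, which were those of *Tet2*, *Egln1*, *Egln2*, *Egln3*, *Alkbh5* and *Phf8*. These matches describe letters only, and no binding was measured.

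*Hif1an* (FIH, which hydroxylates an asparagine of HIF-α; chromosome 19, 44562850 to 44576274) measured 16.0, 14.5 and 15.8 FPKM in the controls and 17.3, 15.4 and 17.8 FPKM in the knockdown samples. The knockdown samples held the 2 highest values, but knockdown replicate 2 lay below 2 of the controls. The log2 fold change was 0.12, from -0.08 to 0.33 (edgeR adjusted p = 0.478), and 0.07, from -0.10 to 0.25, without Ctrl shRNA replicate 2 (adjusted p = 0.628).

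Among the TET enzymes, which start active removal of DNA methylation, *Tet3* was the main transcript. *Tet3* (chromosome 6, 83362373 to 83459084) measured 11.6, 10.2 and 10.8 FPKM in the controls and 11.1, 9.57 and 12.5 FPKM in the knockdown samples, which held both the lowest and the highest value. Its log2 fold change was 0.03, from -0.25 to 0.31 (edgeR adjusted p = 0.919), and -0.02, from -0.26 to 0.23, without Ctrl shRNA replicate 2 (adjusted p = 0.942). *Tet2* (chromosome 3, 133463679 to 133545139) measured 1.24, 0.872 and 1.10 FPKM against 0.985, 0.953 and 1.20 FPKM, and the controls spanned the knockdown samples. The log2 fold change of *Tet2* was -0.04, from -0.43 to 0.35 (edgeR adjusted p = 0.918), and -0.17, from -0.45 to 0.11, without that replicate, which had its lowest value (adjusted p = 0.476). *Tet3* made up 91.1% ± 0.957 of the summed FPKM of the 3 TET genes in the controls and 91.3% ± 0.444 in the knockdown samples (SD, n = 3; exact permutation p = 0.7).

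*Tet1* (chromosome 10, 62804570 to 62908996) was at background. It had 0 counts in each of the 3 controls and 4, 1 and 0 counts in the knockdown samples, 5 in all, and did not enter the test. A count of 0 allows up to 3 counts, or 0.0969 to 0.152 CPM across the controls, counting error only. Its level is therefore given as not detected in the controls at this depth, with no fold change.

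The RNA demethylases held the highest level of the set and the only gene whose groups did not overlap. *Alkbh5* (chromosome 11, 60536381 to 60558512), which demethylates N6-methyladenosine (m6A) in nuclear RNA, measured 38.8, 32.9 and 37.8 FPKM in the controls and 43.2, 40.6 and 44.2 FPKM in the knockdown samples. Every knockdown sample lay above every control, with means of 42.7 ± 1.84 and 36.5 ± 3.15 FPKM (SD, n = 3 each; two-sided exact permutation p = 0.1, the smallest possible). Its log2 fold change was 0.22 ± 0.09 (SE), with a 95% interval of 0.01 to 0.44, an unadjusted p of 0.0451 and an adjusted p of 0.352 in edgeR. The groups were still apart without Ctrl shRNA replicate 2, its lowest sample. The log2 fold change was then 0.15, with an interval of -0.01 to 0.31 that reached 0 (edgeR adjusted p = 0.269). With limma's sample quality weights it was 0.19 (adjusted p = 0.0370).

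*Fto* (chromosome 8, 91313525 to 91668439), a demethylase of m6A and of cap-adjacent adenosine, measured 7.63, 6.06 and 6.57 FPKM in the controls and 7.57, 8.03 and 7.32 FPKM in the knockdown samples. Ctrl shRNA replicate 1 lay among the knockdown samples while the other 2 controls lay below all 3. The log2 fold change was 0.18, from -0.07 to 0.42 (edgeR adjusted p = 0.405), and 0.10, from -0.09 to 0.29, without Ctrl shRNA replicate 2 (adjusted p = 0.532). Leaving out Ctrl shRNA replicate 1 instead gave 0.28 (adjusted p = 0.173). *Alkbh5* made up 84.4% ± 0.818 of the summed FPKM of the pair in the controls and 84.8% ± 1.18 in the knockdown samples (SD, n = 3; exact permutation p = 0.8).

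*Phf8* (chromosome X, 151520672 to 151633859), a JmjC histone demethylase with a PHD finger, measured 3.80, 2.67 and 2.99 FPKM in the controls and 3.85, 4.08 and 3.21 FPKM in the knockdown samples. The controls held the 2 lowest values, and Ctrl shRNA replicate 1 lay inside the range of the knockdown group. Its log2 fold change was 0.24, from -0.15 to 0.62 (edgeR adjusted p = 0.462). Without Ctrl shRNA replicate 2, its lowest sample, it was 0.13, from -0.18 to 0.43 (adjusted p = 0.632). Leaving out Ctrl shRNA replicate 1, its highest control, gave 0.39 (adjusted p = 0.183).

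**Figure D2:**
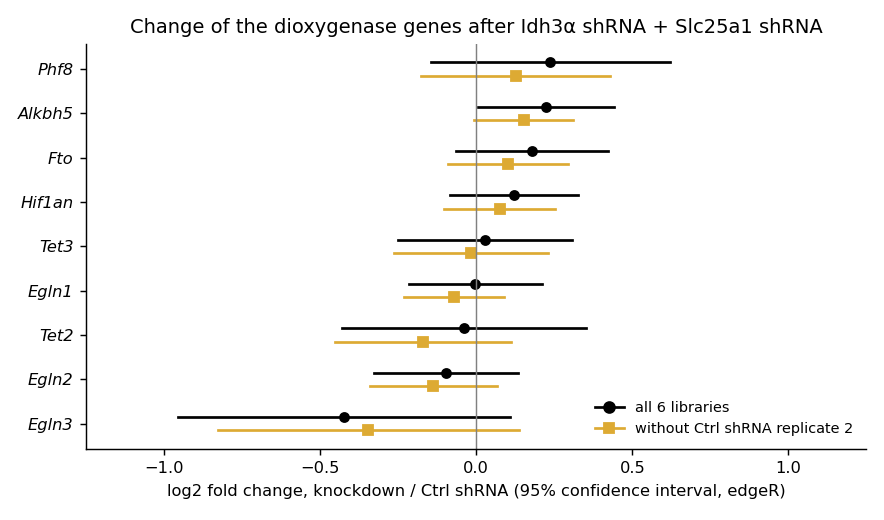
log2 fold change (knockdown over Ctrl shRNA, horizontal axis) of each tested enzyme with its 95% confidence interval from edgeR, for all 6 samples and without Ctrl shRNA replicate 2. With all samples only the interval of *Alkbh5* (0.01 to 0.44) stays above 0, and without that replicate all 9 intervals include 0.

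Per length, the order of the mean FPKM was *Alkbh5*, *Egln1*, *Egln2*, *Hif1an*, *Tet3*, *Fto*, *Phf8*, *Egln3*, *Tet2* and *Tet1*. Of neighbouring genes in this order, only *Egln1* and *Egln2* had ranges over the 6 samples that overlapped. In FPKM, 7 of the 9 expressed enzymes had their lowest control value in Ctrl shRNA replicate 2. Several of the genes overlap others on the genome, and the sources used here do not say whether counting used strand. *Egln2* shares 11 bases with *Cyp2t4* on the opposite strand, which averaged 22.5 counts (1.09% of *Egln2*). *Tet3* overlaps *B230319C09Rik* on the opposite strand, with 24.8 counts on average (0.481% of *Tet3*), as well as *5430434F05Rik* and *Mir6374*. *Fto* overlaps *Gm45290*, which averaged 9.67 counts (0.363% of *Fto*), and also *Gm45289*, *Gm45294*, *Gm3235*, *4831440D22Rik*, *Gm45292*, *Gm45293* and *Gm45427*. The genes overlapping *Tet2* (*Gm42567*), *Phf8* (*Gm24460*) and *Tet1* (*Gm48353* and *Gm26479*) had at most 0.333 counts on average.

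Around the enzymes, 8 lists of 140 related genes were followed, of which 134 were tested. With all 6 samples edgeR called 0 of them, and 28 passed an unadjusted p of 0.05, where 14.1% of all genes did. Without Ctrl shRNA replicate 2 it called 7, with 5 higher and 2 lower. DESeq2 on all samples also called 7 (2.71% of all genes) and the quality weights 25 (15.0% of all genes). The lower calls of edgeR and DESeq2 were only the targeted *Idh3a* and *Slc25a1*, and the quality weights also called both. Among all genes, 175 (1.11%) were called higher without that replicate. The lists were chosen with earlier results of these data known. They are described by their counts and medians, next to a median log2 fold change over all genes of -0.01, or -0.02 without that replicate.

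The HIF pathway list held 15 genes for the HIF subunits, the VHL complex and HIF cofactors, of which 13 were tested. *Hif1a*, the subunit that the prolyl hydroxylases act on, measured 87.7, 108 and 88.3 CPM in the controls and 96.3, 101 and 95.3 CPM in the knockdown samples, and was named after its values were seen. Its log2 fold change was 0.04 (edgeR adjusted p = 0.857). Leaving out Ctrl shRNA replicate 2, its highest sample, gave 0.14 (adjusted p = 0.278), with the knockdown samples above both remaining controls. *Cited2*, encoding a HIF-inducible competitor for the HIF coactivators, was the 1 gene edgeR called, without Ctrl shRNA replicate 2. *Cited2* measured 35.3, 33.7 and 34.5 CPM in the controls and 49.5, 55.5 and 50.3 CPM in the knockdown samples, with no overlap. It rose by 0.56 ± 0.08 (SE) on the log2 scale without Ctrl shRNA replicate 2 (edgeR adjusted p = 0.0177), and its value with all samples was 0.58 (edgeR adjusted p = 0.111, DESeq2 adjusted p = 5.04e-05). DESeq2 also called *Arnt2*, a low-level partner subunit of HIF-α named after its values were seen, which measured 0.743, 0.405 and 0.662 CPM in the controls and 1.18, 1.78 and 2.02 CPM in the knockdown samples. The DESeq2 log2 fold change was 1.43 (adjusted p = 0.0467), and edgeR's adjusted p was 0.288, or 0.120 without that replicate. The VHL complex subunits *Elob*, *Eloc* and *Rbx1* had log2 fold changes of -1.74, -1.60 and -1.26. Leaving out Ctrl shRNA replicate 2 gave -0.31, -0.59 and -0.34. In that replicate *Elob* stood at 1438 CPM against 196 and 276 CPM in the other controls. In all 3 genes, Ctrl shRNA replicate 1 lay inside the knockdown range. Ctrl shRNA replicate 3 lay above it, at 276, 105 and 154 CPM. edgeR called none of the 3 in either set, nor did DESeq2, while limma's sample quality weights called *Eloc* at -0.83 (adjusted p = 0.0425). The list's median was 0.04 with all samples and 0.03 without Ctrl shRNA replicate 2.

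HIF target genes are a transcript-level readout of the pathway that these hydroxylases restrain. Of 22 listed, 21 were tested, 12 with a log2 fold change above 0 and 9 below, at a median of 0.02. Without Ctrl shRNA replicate 2, edgeR called 3 higher and 0 lower, which were the glycolytic genes *Ldha*, *Slc2a1* and *Hk2*. At an unadjusted p of 0.05, 9 of the 21 passed in that fit in either direction, where 19.9% of all genes tested did. With all 6 samples 7 of the 21 passed, 4 higher and 3 lower, where 14.1% of all genes did.

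*Ldha*, which encodes lactate dehydrogenase A, measured 416, 427 and 429 CPM in the controls and 568, 548 and 536 CPM in the knockdown samples. It rose by 0.37 ± 0.07 (SE) on the log2 scale without Ctrl shRNA replicate 2 (edgeR adjusted p = 0.0325). *Slc2a1*, encoding the glucose transporter GLUT1, measured 16.3, 15.3 and 12.4 CPM against 27.7, 24.9 and 26.2 CPM. It rose by 0.86 ± 0.13 (SE; adjusted p = 0.0180). *Hk2*, encoding hexokinase 2, measured 6.46, 6.28 and 6.17 CPM against 12.1, 10.3 and 13.5 CPM, and rose by 0.92 ± 0.15 (SE; adjusted p = 0.0229). In each of these genes every knockdown sample lay above every control, and Ctrl shRNA replicate 2 lay close to the other controls. With all 6 samples, their log2 fold changes were 0.38, 0.84 and 0.93, with edgeR adjusted p of 0.245, 0.144 and 0.144. DESeq2 on the same 6 samples called all 3 higher, with adjusted p of 0.000228, 8.29e-05 and 8.29e-05.

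None of the other 18 HIF targets tested passed the threshold in edgeR. *Ddit4*, a stress-induced inhibitor of mTORC1, had a log2 fold change of -0.55 with all samples and -0.53 without Ctrl shRNA replicate 2 (edgeR adjusted p = 0.118), and limma's quality weights called it lower at -0.52 (adjusted p = 0.0323). The quality weights, which called 15.0% of all genes tested, called 4 HIF targets higher and 2 lower. Beyond the genes above, these were *Pfkfb3*, a glycolytic regulator, at 0.44 (adjusted p = 0.0183) and *Bnip3l*, a mitophagy receptor, at -0.26 (adjusted p = 0.0211), both named after their values were seen. *Higd1a*, a mitochondrial respiratory factor, stood at -1.03 with all samples and -0.30 without it. *Ankrd37* stood at -0.69 with all samples and at 0.51 without the replicate, which held 11.8 CPM against 2.27 to 3.84 CPM in the other 5 samples. *Vegfa*, the angiogenic factor, had a log2 fold change of 0.12 (edgeR adjusted p = 0.468), or 0.05 without that replicate (adjusted p = 0.680), and was named after its values were seen. *Egln3*, itself HIF-inducible, had the negative value given above.

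**Figure D3:**
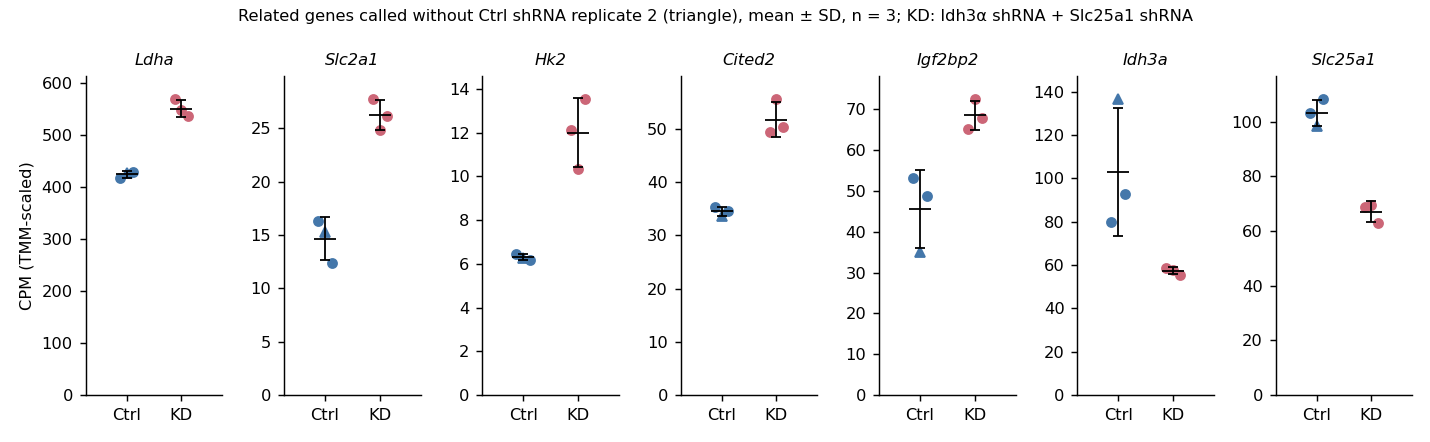
TMM-scaled CPM (vertical axes, from 0) of the 7 related genes called without Ctrl shRNA replicate 2, with 1 point per sample (triangle, that replicate) and bars for the group mean ± SD. In all 7 genes, including *Idh3a* and *Slc25a1* (lower) and *Hk2* at 6.17 to 6.46 CPM against 10.3 to 13.5 CPM, the groups do not overlap.

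The list of 25 genes for 2-oxoglutarate supply covered the isocitrate and 2-oxoglutarate dehydrogenases, glutamine use, succinate and fumarate removal, and the carriers. Apart from the targeted *Idh3a* and *Slc25a1*, edgeR called none of them. *Sdhb*, a subunit of succinate dehydrogenase, had a log2 fold change of -0.86 in the full set and -0.17 after leaving out Ctrl shRNA replicate 2, which stood at 303 CPM against 89.1 to 118 CPM elsewhere. *Sdhd* and *Sucla2* were at -0.44 and -0.43, and at -0.05 each without that replicate. The list's median was -0.07, or -0.04 without it.

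Of the m6A writers and readers, the counterparts of *Alkbh5* and *Fto*, 15 of 17 had log2 fold changes above 0 and the median was 0.18. Leaving out Ctrl shRNA replicate 2, 13 of 17 did, the median was 0.16, and edgeR called 1 higher. That gene was *Igf2bp2*, which encodes an m6A reader that stabilizes mRNA. *Igf2bp2* measured 53.3, 35.0 and 48.7 CPM in the controls and 65.3, 72.4 and 67.8 CPM in the knockdown samples, and rose by 0.42 ± 0.08 (SE) on the log2 scale without that replicate (adjusted p = 0.0448). With all samples its log2 fold change was 0.58, and neither edgeR (adjusted p = 0.299) nor DESeq2 (adjusted p = 0.0983) called it. *Igf2bp3* and *Ythdc2*, further readers, and *Zc3h13*, a writer component, had log2 fold changes of 0.42, 0.35 and 0.26, or 0.23, 0.24 and 0.18 without that replicate. The summed FPKM of the 17 genes was 164 to 173 in the controls and 185 to 190 in the knockdown samples. With all samples, 6 of the 17 passed an unadjusted p of 0.05, all of them higher, where 7.47% of all genes tested did so in that direction.

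The relatives of the enzymes gave no call in edgeR with all 6 samples or without Ctrl shRNA replicate 2. Among the 25 tested JmjC proteins, the family of *Phf8*, the median log2 fold change was 0.15, or 0.06 without that replicate. *Riox2* and *Kdm8* stood at 0.43 and 0.37, or at 0.20 each without it. *Tyw5* stood at -0.92, but at -0.06 without the replicate, which held 36.0 CPM against 8.79 to 11.9 CPM in the other samples. The oxygen-sensitive histone demethylase *Kdm3a*, a HIF target named after its values were seen, had a log2 fold change of 0.15 (edgeR adjusted p = 0.532), or 0.02 without the replicate (adjusted p = 0.882).

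The 7 other AlkB homologs, relatives of *Alkbh5* and *Fto*, had a median of -0.16, or -0.09 without Ctrl shRNA replicate 2. *Alkbh2*, *Alkbh7* and *Alkbh1* were at -0.45, -0.43 and 0.27, or -0.37, -0.17 and 0.17 without it. The 17 tested collagen and other hydroxylases had a median of 0.01, or -0.11 without that replicate. In this list *Phyh*, the peroxisomal hydroxylase of phytanoyl-CoA, and *Tmlhe*, an enzyme of carnitine synthesis, were at -0.73 and -0.68, and *Ogfod1*, a ribosomal protein hydroxylase, at 0.29. Without the replicate these values were -0.38, -0.28 and 0.23. The 12 genes of the DNA methylation cycle, which work beside the TET enzymes, had a median of 0.05, or 0.00 without the replicate. There the DNA methyltransferase gene *Dnmt3b* was at 0.56, *Gadd45a* at -0.54 and *Gadd45b* at 0.35, or 0.63, -0.49 and 0.33 without it.

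Outside the HIF targets, limma's quality weights called 19 related genes, in a fit that called 15.0% of all genes tested. Those not yet described were named after their values were seen. Higher were *Jmjd6*, *Kdm6b* and *Riox1* among the JmjC proteins, *Ogfod1* among the hydroxylases, *Crebbp* and *Cited2* in the HIF pathway, *Got1* and *Got2* in 2-oxoglutarate supply, *Zc3h13*, *Ythdc1*, *Ythdf2* and *Igf2bp2* among the m6A genes, and *Dnmt3b* and *Gadd45b* in the DNA methylation cycle. Lower were *Phyh*, *Eloc*, *Idh3a*, *Slc25a1* and *D2hgdh*.

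**Figure D4:**
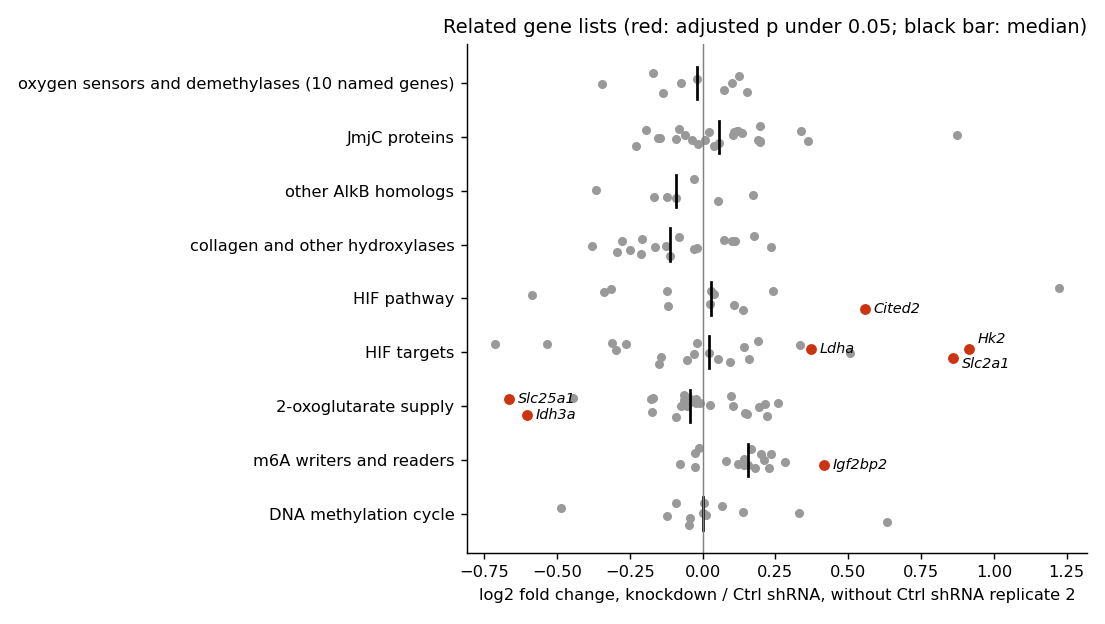
log2 fold change without Ctrl shRNA replicate 2 (horizontal axis) of the tested members of each list, with 1 point per gene, red for an edgeR adjusted p under 0.05 and a black bar at the list's median. The 7 red genes lie in 4 of the lists, and the list medians lie between -0.11 and 0.16.

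Markers of other cell types were also compared between the groups. Among the leukocyte markers, *Ptprc*, *Adgre1* and *Itgam* had 0 counts in all samples, and the summed FPKM of the list was 1.49 to 1.63 in the controls and 1.94 to 2.21 in the knockdown samples. Most of that sum was *Cd68*, at 1.32 to 1.52 and 1.87 to 2.18 FPKM, with a log2 fold change of 0.51 (edgeR adjusted p = 0.352). The 5 endothelial markers summed to 7.85 to 9.65 and 6.76 to 7.00 FPKM, most of it *Tek*, with *Cdh5* and *Cldn5* at or near 0. The 6 fibroblast markers summed to 59.0 to 209 and 53.9 to 58.5 FPKM, mostly *Dcn* (1211 CPM in Ctrl shRNA replicate 2), with *Col3a1* at 0. In the other direction *Pdgfra* was at 2.23 to 2.68 CPM in the controls and 3.43 to 3.91 CPM in the knockdown samples, with a log2 fold change of 0.63 (edgeR adjusted p = 0.312; 0.0312 with limma's quality weights). The 11 alveolar type 2 and epithelial markers summed to 344 to 359 and 294 to 320 FPKM. The part of these differences, or of the makeup of Ctrl shRNA replicate 2, in the values above was not tested, other than by leaving that replicate out.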

How the data were processed

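RNA-seq was analysed in all 6 samples, 3 per group, grouped and numbered by their labels. The authors deposited whole-number read counts per Ensembl gene without normalization. The FPKM values were also deposited, and they equal counts over gene length and a per-sample size set by the authors (0.716 to 1.08 times the total count). The submitters' processing notes name HISAT2 2.0.5, StringTie 1.3.3b, featureCounts 1.5.0-p3 and mm10 without roles, and the labels also name Trinity. The use of strand in counting is not given in the sources used here. All 10 enzymes, and 98.3% of the genes shared with GENCODE M21 on GRCm38, had the same positions there. No column of per-sample values was left unused (0).

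Counts were filtered with filterByExpr, scaled by TMM and tested in edgeR 4.0.16 (quasi-likelihood F-test, R 4.3.3) with no covariate, and Benjamini-Hochberg adjustment ran over all genes tested. Confidence intervals are at 95%. Differences of group means were also tested by two-sided exact permutation in scipy 1.17.1. Alternatives were median-of-ratios scaling, library size alone, all genes without a filter, a minimum of 10 counts per sample, DESeq2 1.42.0, limma 3.58.1 (voom with sample quality weights, or log2(FPKM + 1) or log2(FPKM + 0.1) with a mean FPKM of at least 0.5 or no filter), the replicate number as a block, and each sample left out in turn. The edgeR test was tested on simulated data. Tables were read with pandas 2.3.3 in Python 3.11.15 and drawn with matplotlib 3.10.9.

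The members and lists were chosen with earlier results of these data known. Named were the 10 enzymes, the targeted genes, cell type markers and overlapping genes, and some items are not reported here. Of each related list, every gene past the threshold with all samples or without Ctrl shRNA replicate 2 was named, with up to 3 others of the largest fold change at a mean FPKM of at least 1. Replicates of a group differed by more than sampling noise (chi-square per degree of freedom 6.13 to 503), so none was counted as a repeat. Protein and metabolite measurements were not used here.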

Additional observations from a re-analysis of the deposited data

How the results depend on the processing

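Each enzyme's log2 fold change was recomputed in 16 other settings, 144 values over 9 genes. Of these, 128 kept direction and side of the threshold, 15 reversed and 1 passed the threshold (*Alkbh5* with limma's quality weights, 0.19). No enzyme was called with all samples in edgeR, so none could lose the threshold. The reversals were in genes with values near 0. With scaling by library size only, which moved the median over all genes from -0.01 to 0.16, *Egln1* was at 0.16, *Tet2* at 0.10 and *Egln2* at 0.0699. *Egln1* was also at 0.0070 with no count filter, 0.0014 for log2(FPKM + 1) with or without the filter, 0.0016 for log2(FPKM + 0.1) and 0.0007 with the replicate block. Leaving out each sample in turn gave -0.17 to 0.0810 for *Tet2*, -0.0661 to 0.12 for *Tet3* and -0.0725 to 0.0542 for *Egln1*. It gave 0.15 to 0.27 for *Alkbh5*, 0.13 to 0.39 for *Phf8*, 0.10 to 0.28 for *Fto*, 0.07 to 0.18 for *Hif1an*, -0.14 to -0.03 for *Egln2* and -0.61 to -0.28 for *Egln3*, none of them called. Over the whole table, edgeR called 10 genes with all samples, against 353 by DESeq2, 2298 with quality weights, 2162 at an unadjusted p of 0.05, 1 by library size only, 0 for log2(FPKM + 0.1), 16 for log2(FPKM + 1) with no filter and 0 with the replicate block. It called 0 to 281 when 1 sample was left out, with 281 without Ctrl shRNA replicate 2. Enzymes called were 0, but 1 with quality weights and 1 at an unadjusted p. Related genes called were 0 of 134, but 7 by DESeq2, 25 with quality weights and 28 at an unadjusted p. With 1 sample left out they were 0 to 7, with 7 without Ctrl shRNA replicate 2. The counts above 0 include the targeted *Idh3a* and *Slc25a1*. Same-numbered samples did not deviate together (correlations of -0.24, -0.18 and -0.00), so the numbers are not read as pairs. The cause of these differences between settings was not tested. Depth limits *Tet1*, with 5 counts in all. The other 9 enzymes had 109 to 7816 counts per sample, and the biological coefficient of variation over all genes was 0.263, against 0.102 without Ctrl shRNA replicate 2.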
